A study of Rattus norvegicus with 19 samples.

Results

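Hearts of rats given empagliflozin and pirfenidone together were compared with hearts of healthy rats at the outset of treatment, to describe how far the treated hearts resembled that healthy state and which genes lay beyond it. The members were taken by title from the sample labels, the 3 libraries of EMPA and PFD treated rats at week 9 and the 3 libraries of control rats at week 5, 6 of the 19 libraries of the series. The study modelled heart failure with preserved ejection fraction (HFpEF) in Sprague-Dawley rats and sequenced RNA from left ventricles of male animals. Rats aged 24 weeks drank water holding 0.5 g/L L-NAME, which blocks the synthesis of nitric oxide, and ate a diet with 60% of its energy from lard for 5 weeks. They then took daily by mouth 0.35 g/kg EMPA, which inhibits the renal sodium-glucose transporter SGLT2, and 0.3 g/kg PFD, which is given against fibrosis, for 4 weeks. Control rats drank no L-NAME and ate chow. The methods give L-NAME and the lard diet for 5 weeks, while the study's discussion speaks of an induction lasting 9 weeks. A further 3 libraries of control rats at week 9 and 3 of HFpEF rats at week 5, before any drug, served as reference points. The control 5-week libraries held 11628931, 13017754 and 12616559 counts in replicates 1, 2 and 3, and the treated libraries 9360259, 10318343 and 10693001. The week 5 and week 9 hearts came from different animals, so treatment, model and the 4 weeks between the groups cannot be told apart in this comparison alone. Replicates carried numbers only, and each p-value rests on the spread between samples within groups, estimated over all 19 libraries of the series.

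The beating ventricle draws most of its energy from fatty acids, which are taken up, bound to coenzyme A, carried into mitochondria and shortened by beta-oxidation, and the nuclear receptor PPAR-alpha switches on many of the enzymes involved. Around the muscle cells, fibroblasts lay down collagens and cross-link them, macrophages clear debris, and both are known to expand when the heart scars. SGLT2 inhibitors are known to raise circulating ketone bodies, and pirfenidone is known to lower collagen production in scarred lungs.

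Among the gene lists examined, treated hearts showed rises over healthy 5-week hearts in fatty acid oxidation and early-response transcription factors, and falls in collagen matrix, macrophage markers and cell division. Of 17455 gene symbols, 12388 passed the filter on low counts, and 1146 (9.25%) were called different at an adjusted p under 0.05 (edgeR quasi-likelihood test, Benjamini-Hochberg) and a fold change of at least 2. Of these, 375 (3.03%) rose and 771 (6.22%) fell in treated hearts, and the median log2 fold change (log2FC) over all tested genes was 0.02. At an unadjusted p under 0.05 there were 4215 genes. The 6 libraries did not overlap, in either direction, for 4368 genes (35.3%), of which 994 were called. A larger share, 6834 genes (55.2%), lay within 2-fold of the healthy 5-week level, meaning that the whole 95% interval of the log2 fold change from limma voom lay between -1 and 1. The remaining 4408 genes (35.6%) were neither called nor shown to lie within 2-fold. Genes beyond both healthy states, called and with all 3 treated libraries above or all below the 6 control libraries of weeks 5 and 9, numbered 440 (3.55%), with 141 higher and 299 lower.

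Other comparisons with the same control 5-week libraries, given side by side since they share those samples, called 1817 genes (14.7%) in healthy hearts 4 weeks older, 924 higher and 893 lower, and 1076 genes (8.69%) in untreated HFpEF hearts at week 5, 530 higher and 546 lower. Of the HFpEF libraries, replicates 1 and 3 held no count of the Y-linked gene Eif2s3y or of Ddx3 although labelled male, nor did the 3 untreated libraries of week 9 and the 2 of PFD alone. Treated hearts against the age-matched control 9-week hearts, which tests directly whether they differed from 4 weeks of healthy ageing, gave 1495 genes (12.1%), 886 higher and 609 lower. List counts given below for these comparisons are to be read against these numbers of all 12388 genes. Without control 9-week replicate 2 the change of the older healthy hearts fell to 1206 genes, and without treated replicate 2 the age-matched comparison fell to 973. The median absolute log2 fold change from the control 5-week level was 0.35 in treated hearts, 0.46 in control 9-week hearts and 0.36 in HFpEF hearts.

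Distances between libraries, taken as Euclidean distances over log2 CPM (counts scaled to library size by the TMM method) of all tested genes, placed the treated mean 86.7 from the control 5-week mean, 84.8 from the control 9-week mean and 109.5 from the HFpEF mean. The HFpEF mean itself lay 79.4 from the control 5-week mean. By group means, treated hearts thus lay farther from the healthy 5-week mean than HFpEF hearts did, and about as far from each healthy group. By single libraries the order differed. From control 5-week replicate 1, HFpEF libraries lay 143.9, 102.6 and 101.2, farther than treated ones at 70.7, 84.6 and 77.2. From replicate 2 they lay nearer than treated ones, at 100.3, 99.4 and 81.5. From replicate 3 they lay at 104.2, 95.8 and 79.5, against 103.8, 118.4 and 106.6 for treated ones. There HFpEF replicate 1 was slightly farther than treated replicate 1. Among all groups the nearest to the treated mean was the one given PFD alone, at 52.0, followed by untreated HFpEF hearts of week 9 at 71.2 and those given EMPA alone at 75.6. Treated libraries lay 54.7 to 67.9 from each other. The nearest library outside the group was for each of them replicate 2 of PFD alone, at 53.1, 73.4 and 64.7 for treated replicates 1, 2 and 3.

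Control 5-week replicate 1 stood apart. Replicates 2 and 3 lay 30.2 from each other, and replicate 1 lay 93.2 and 85.1 from them. Treated replicates 1, 2 and 3 lay 70.7, 84.6 and 77.2 from it, 111.6, 126.2 and 113.4 from replicate 2 and 103.8, 118.4 and 106.6 from replicate 3. It was the control 5-week library nearest to the treated ones in 726 of the 771 genes that fell (94.2%) and in 237 of the 375 that rose (63.2%). Without it, 1882 genes were called, 771 higher and 1111 lower, and these held 1107 of the 1146. Without control 5-week replicate 2 or 3 the count was 389 or 484, and without treated replicate 2 or 3 it was 411 or 669. Genes beyond both healthy states numbered 841 without control 5-week replicate 1, 198 and 232 without replicates 2 and 3, and 698 and 220 without treated replicates 1 and 2. Many list counts below are therefore given with and without these libraries, written as control 1, 2 or 3 for the 5-week controls and treated 1, 2 or 3. Of 133 tracked calls 43 ended with the 6 libraries alone, named below for few genes, and 20 with a replicate block, not named below.

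**Figure D1:**
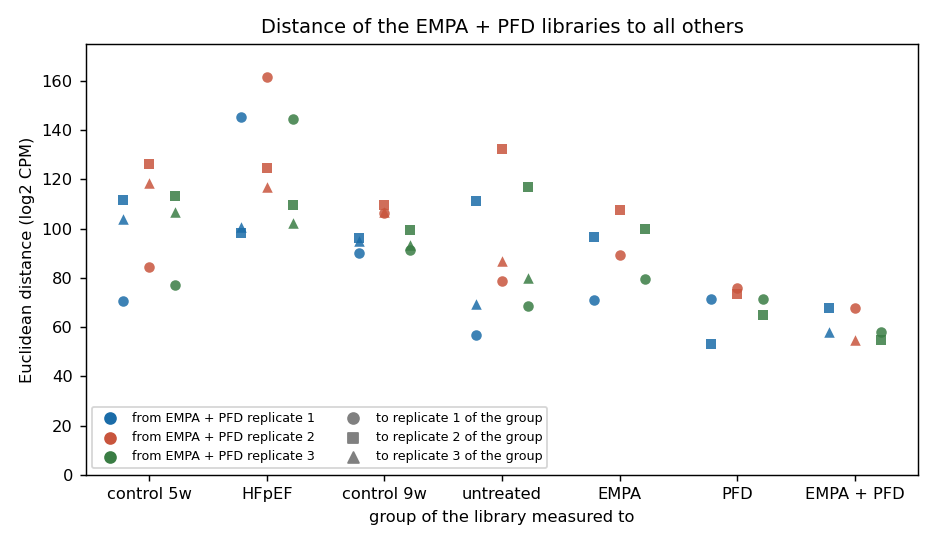
Euclidean distance in log2 CPM over all tested genes from each EMPA + PFD library (colour) to each other library (marker shape gives the replicate number), by group. The distances to control 5w split into 70.7 to 84.6 for replicate 1 and 103.8 to 126.2 for replicates 2 and 3.

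Resemblance to the healthy start was close among cytosolic ribosomal proteins, genes of the study's signalling list, endothelial markers and interferon genes, each with a larger share within 2-fold than the 55.2% of all tested genes. Small shifts were still common in the first 2 of these, with 37 of 75 and 13 of 22 genes not overlapping between groups against 35.3% of all genes. Of 75 tested cytosolic ribosomal proteins, the building blocks of the ribosome, 72 lay within 2-fold, with a median log2FC of -0.23 and 1 call. Rpl17, a protein of the large subunit, was at 495, 652 and 606 CPM in control 5-week replicates 1, 2 and 3 and at 322, 252 and 245 CPM in treated ones. All treated libraries were below all controls, and the gene fell (log2FC -1.10 ± 0.15, adjusted p = 0.00108). Mitochondrial ribosomal proteins, which translate the genes of the mitochondrial genome, did not stand out, with 38 of 70 (54.3%) within 2-fold and 1 call, Mrpl30. Its values were 2.36, 1.78 and 1.35 CPM in the controls and 2.13, 19.5 and 16.3 CPM in treated hearts, so replicate 1 lay inside the control range and replicates 2 and 3 far above it (log2FC 2.79 ± 0.81, adjusted p = 0.0301). The call of Mrpl30 ended without control 2 or 3 or treated 2 or 3 (adjusted p 0.0812 to 0.118). The calls of mitochondrial ribosomal proteins rose to 10 without control 1.

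Interferon-response genes, the antiviral programme of the cell, lay within 2-fold in 18 of 27 (66.7%), with a median of 0.05 and 1 call. Ifit3, an interferon-induced adaptor of antiviral signalling, rose from 8.20, 13.03 and 11.9 to 32.3, 35.1 and 35.7 CPM, without overlap (log2FC 1.63 ± 0.32, adjusted p = 0.00587). In older healthy hearts 14 of the 27 were called higher than at week 5, with a median of 1.00, and treated hearts were called lower than those in 10, with a median of -0.86. Of all 12388 genes, 924 were called in the former comparison as higher and 609 in the latter as lower. Endothelial markers behaved alike, with 10 of 14 (71.4%) within 2-fold and 1 call. Cldn5, a tight junction protein of vessel walls, stood at 38.8, 29.9 and 25.2 CPM in the controls and 159, 126 and 63.9 CPM in treated hearts, all higher (log2FC 1.89 ± 0.34, adjusted p = 0.00425). Against the older healthy hearts, 8 endothelial markers were called lower in treated ones. Summed levels were 3047, 2502 and 2835 CPM in control and 3624, 3273 and 3208 CPM in treated replicates, with Flt1 the most abundant, a receptor for vascular growth factors.

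The study reported a group of genes of signalling through protein kinase C (PKC) and G-protein-coupled receptors as responding to the combination, and since it chose them on these samples their direction is not independent evidence. Against healthy 5-week hearts, 17 of the 22 (77.3%) lay within 2-fold, 1 was called, and the median was -0.06. That gene, Rgs14, which quenches G-protein signals, fell from 4.43, 7.37 and 7.24 to 3.19, 1.91 and 3.34 CPM, without overlap (log2FC -1.17 ± 0.31, adjusted p = 0.0209). The call of Rgs14 ended without control 2 or 3 or treated 2 (adjusted p 0.0832 to 0.108, absolute log2FC down to 0.94). Prkce, the epsilon form of PKC, was at 27.2, 20.1 and 20.5 CPM in controls and 23.4, 41.01 and 33.2 CPM in treated hearts. The groups overlapped, the 95% interval of the log2FC ran from 0.08 to 0.94, and HFpEF hearts held 5.53, 8.80 and 10.003 CPM. S100b, a calcium-binding protein, had 3.01, 4.73 and 3.66 CPM against 1.06, 1.08 and 1.36 CPM, all treated values lower, at an adjusted p of 0.279, or 0.0343, a call, with the 6 libraries alone. Against the age-matched controls 6 of the 22 were called higher in treated hearts, with a median of 0.48.

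The neuronal sodium channel Scn1a was at 25.6, 20.02 and 24.5 CPM in control 5-week and 28.4, 33.5 and 20.998 CPM in treated hearts, overlapping, with an interval of -0.26 to 0.70, while HFpEF hearts held 6.32, 12.6 and 12.5 CPM. Slc5a1, the intestinal sodium-glucose transporter, had a single count in each group and was not tested. The Y-linked gene Eif2s3y, a translation factor, was at 113, 102 and 96.4 CPM in the controls and 97.6, 108 and 104 CPM in treated hearts, overlapping and within 2-fold. Ddx3, an RNA helicase, was at 99.9, 98.5 and 104 and 114, 139 and 148 CPM, without overlap but not called (adjusted p = 0.840).

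Many enzymes that burn fatty acids rose beyond both healthy states. Of 22 tested genes of fatty acid oxidation, 11 rose and none fell, against 3.03% of all genes rising, with a median log2FC of 1.49 against 0.02. The treated libraries lay above the controls without overlap in 21 of the 22, against 35.3% of all genes without overlap in either direction, and all 11 called genes lay beyond both healthy groups. Decr1, which lets unsaturated fatty acids enter the pathway, was at 183, 89.8 and 98.7 CPM in control 5-week replicates and 765, 1097 and 921 CPM in treated ones. Every treated library was far above the highest control, and the gene rose (log2FC 2.90 ± 0.45, adjusted p = 0.00237). Untreated hearts of week 9 held 638, 154 and 468 CPM of Decr1, those given EMPA alone 820 and 479 CPM and those given PFD alone 526 and 554 CPM. Hadhb, the beta subunit of the trifunctional protein of beta-oxidation, stood at 1547, 688 and 749 and 2861, 4335 and 3625 CPM. Its control 1 was the highest of the controls and still under each treated library (log2FC 1.86 ± 0.52, adjusted p = 0.0269). Acadm, the medium-chain acyl-CoA dehydrogenase, stood at 997, 473 and 542 and 2166, 3525 and 2885 CPM, again without overlap (log2FC 2.09 ± 0.61, adjusted p = 0.0312). Acadl, which takes long chains, stood at 1381, 709 and 798 and 2882, 3894 and 3433 CPM, with the same order of groups (log2FC 1.82 ± 0.55, adjusted p = 0.0344). The calls of Hadhb (adjusted p 0.0604 to 0.127), Acadm (adjusted p 0.0675 to 0.139) and Acadl (adjusted p 0.0716 to 0.147) ended without control 2 or 3 or treated 2 or 3.

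Eci1, an isomerase for unsaturated chains, was at 269.5, 85.3 and 92.7 CPM in the controls and 479.9, 728 and 736 CPM in treated hearts (log2FC 2.12 ± 0.56, adjusted p = 0.0199). Acaa2, the last enzyme of the beta-oxidation spiral, was at 1065, 168 and 202 and 2482, 2699.9 and 2693 CPM (log2FC 2.46 ± 0.79, adjusted p = 0.0443). In both genes control 1 lay between the other controls and the treated libraries. Acaa2 was also at 1997, 172 and 1519 CPM in untreated week 9 hearts, 1673 and 1056 CPM with EMPA alone and 1505 and 2007 CPM with PFD alone. The call of Eci1 ended without control 2 or 3 or treated 2 or 3 (adjusted p 0.0565 to 0.104). The call of Acaa2 ended without control 2 or 3 or treated 1, 2 or 3 (adjusted p 0.0608 to 0.174). That of Acaa2 also ended without any 1 of 8 libraries of the other groups (adjusted p 0.0530 to 0.0584). The list's count was 21 without control 1, and 2 without control 2 or 3 or treated 2 or 3, Decr1 being 1 of the 2 in each case. In healthy hearts at week 9 the list had 2 calls, both lower, and a median of -0.38, in HFpEF hearts 1 lower and a median of -0.83. Treated against control 9-week hearts, 18 of 22 were higher, with a median of 1.98. The summed level of the list was 16429, 5851 and 6744 CPM in the controls and 24884, 35204 and 31300.1 CPM in treated hearts, with the fatty acid binding protein Fabp3 the most abundant. Cardiomyocyte markers, described below, summed to 80141, 32794 and 36675 CPM in the controls and 60739, 85628 and 71942 CPM in treated hearts. In both sums control 2 and control 3 were the lowest, and the part of cardiomyocyte share was not tested.

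Among targets of PPAR-alpha and enzymes of ketone metabolism, several genes rose steeply. In this list 12 of 22 rose (3.03% of all genes), none fell, 9 lay beyond both healthy groups, and the median was 1.29. Angptl4, a secreted inhibitor of lipoprotein lipase, was at 1.22, 1.32 and 0.955 CPM in the controls and 65.2, 59.2 and 77.2 CPM in treated hearts (log2FC 5.83 ± 0.45, adjusted p = 6.15e-06). No library came near the other group, although HFpEF hearts also reached 71.3, 23.7 and 49.8 CPM. Pdk4, the kinase that closes pyruvate dehydrogenase and so spares glucose, went from 36.3, 23.7 and 26.9 to 443, 1791 and 1673 CPM, with treated 1 the lowest of its group (log2FC 5.49 ± 0.70, adjusted p = 0.000584). Acot1, which releases fatty acids from coenzyme A, went from 0.848, 0.310 and 0.318 to 7.33, 14.1 and 14.3 CPM (log2FC 4.60 ± 0.66, adjusted p = 0.00133). Ucp3, an uncoupling protein of muscle mitochondria, went from 11.6, 1.16 and 3.02 to 92.2, 66.4 and 104 CPM (log2FC 4.08 ± 0.76, adjusted p = 0.00470). Groups did not overlap in these 4 genes, and each stayed called without any 1 of the 6 libraries. All 4 were also higher than in control 9-week hearts, by log2FCs of 2.76 for Angptl4, 3.48 for Pdk4, 3.61 for Acot1 and 2.11 for Ucp3. With EMPA alone Angptl4 was at 54.5 and 61.6 CPM and Ucp3 at 75.8 and 41.4 CPM. With PFD alone Pdk4 was at 932 and 610 CPM and Ucp3 at 73.8 and 73.2 CPM. Untreated week 9 hearts held 9.39, 1.14 and 3.79 CPM of Acot1 and 12.4, 19.2 and 19.8 CPM of Angptl4. In each of the 4 genes some untreated or single-drug libraries lay within the treated range and others below it. The list's count was 15 without control 1 and 7 without control 2 or 3 or treated 2 or 3.

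Mitochondrial pathways downstream of beta-oxidation held 1 call. None of the 22 genes of the tricarboxylic acid cycle was called by edgeR, although all 22 had positive log2FCs with a median of 0.68 and 12 had no overlap between groups (35.3% of all genes had none). There were 9 calls without control 1, with a median of 1.12. Against control 9-week hearts 18 of 22 were higher. Of 49 tested subunits of oxidative phosphorylation, 1 rose (2.04%, against 3.03% of all genes), with a median of 0.57. This was Ndufa1 of complex I, at 6.31, 3.03 and 3.74 CPM in the controls and 7.45, 10.9 and 7.94 CPM in treated hearts, without overlap (log2FC 1.01 ± 0.32, adjusted p = 0.0440). The call of Ndufa1 ended without control 2 or 3 or treated 2 or 3 (adjusted p 0.0724 to 0.191, absolute log2FC down to 0.80). That of Ndufa1 also ended without any 1 of 7 libraries of the other groups (adjusted p 0.0502 to 0.0570). Without control 1, 21 subunits were called higher, and their median was 1.12.

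Of 28 genes of glycolysis and glycogen, 1 rose (3.57%), near the 3.03% of all genes that rose. Pfkfb1, which sets the level of a regulator of glycolysis, went from 2.36, 0.931 and 0.637 to 3.55, 6.46 and 5.85 CPM (log2FC 2.03 ± 0.46, adjusted p = 0.0104), short of the 22.3, 21.2 and 19.04 CPM of older healthy hearts. In the breakdown of branched-chain amino acids 1 of 16 rose, Auh, a hydratase of leucine breakdown, from 70.8, 49.4 and 53.2 to 120.0, 145 and 112 CPM (log2FC 1.12 ± 0.33, adjusted p = 0.0307). The call of Pfkfb1 ended without control 2 or 3 (adjusted p 0.0542 to 0.0628). The call of Auh ended without control 2 or 3 or treated 2 or 3 (adjusted p 0.0548 to 0.134). Both lists had 3 calls without control 1.

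Of 24 genes of sterol and fatty acid synthesis, 2 rose and 3 fell, against 3.03% of all genes rising and 6.22% falling. Fasn, the fatty acid synthase, fell from 49.7, 69.3 and 65.8 to 34.3, 21.4 and 27.5 CPM (log2FC -1.15 ± 0.22, adjusted p = 0.00522). Scd2, a desaturase, had 151, 328 and 307 against 141, 58.7 and 59.03 CPM (log2FC -1.61 ± 0.47, adjusted p = 0.0318), and Dhcr7, the last enzyme of cholesterol synthesis, had 12.4, 10.5 and 9.39 against 6.74, 4.18 and 3.97 CPM (log2FC -1.12 ± 0.27, adjusted p = 0.0149). Dgat2, which stores fatty acids as triglyceride, rose from 14.3, 7.99 and 8.36 to 18.6, 50.7 and 66.02 CPM (log2FC 2.15 ± 0.48, adjusted p = 0.0100). Fdft1, which makes squalene, named after its values were seen, had 122, 60.1 and 70.99 against 159.8, 181 and 168 CPM, without overlap (log2FC 1.01 ± 0.31, adjusted p = 0.0394). The call of Fasn ended without treated 2 (adjusted p 0.0361, absolute log2FC down to 0.98). The call of Scd2 ended without control 2 or 3 or treated 2 or 3 (adjusted p 0.104 to 0.139). The call of Dhcr7 ended without control 1 or 2 or treated 2 or 3 (adjusted p 0.0276 to 0.0808, absolute log2FC down to 0.96). The call of Dgat2 ended without control 2 or 3 (adjusted p 0.0527 to 0.0589). The call of Fdft1 ended without control 2 or 3 or treated 1, 2 or 3 (adjusted p 0.0517 to 0.175, absolute log2FC down to 0.81). That of Fdft1 also ended without 1 library of the other groups (adjusted p 0.0527). The list had 4 higher without control 1, none higher without control 2 or 3, and none lower without treated 2.

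**Figure D2:**
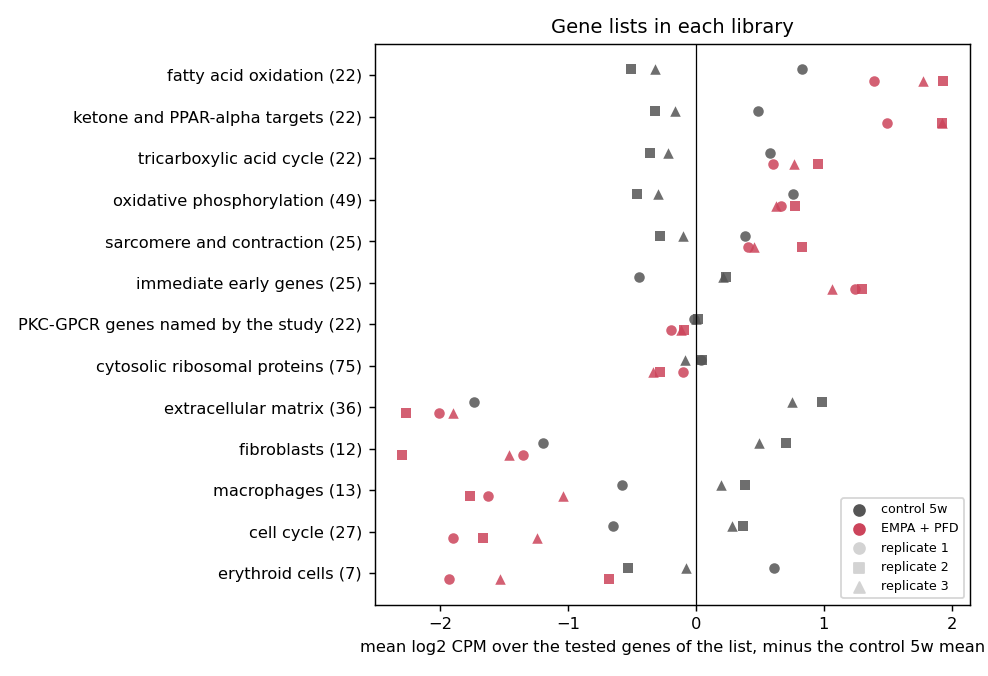
Mean log2 CPM over the tested genes of 13 gene lists (number of genes in brackets) in each control 5w and EMPA + PFD library, as the difference from the control 5w mean. In fatty acid oxidation all 3 treated libraries lie above all 3 controls, whereas in the extracellular matrix list control 5w replicate 1 lies near the treated libraries.

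Genes of the extracellular matrix were lower than in the healthy starting hearts, with 1 control heart as the exception. Of 36 tested matrix genes 26 fell and none rose, against 6.22% of all genes falling, with a median log2FC of -2.57. The summed level was 10587, 75214 and 61932 CPM in control 5-week replicates 1, 2 and 3 and 10078, 6046 and 9035 CPM in treated ones, so control 1 lay just above the treated range and replicates 2 and 3 several times higher. Groups did not overlap in 16 of the 36, against 35.3% of all genes. Older healthy hearts were also lower than the 5-week hearts in 24 of 36, with a median of -2.28, and treated hearts had no call against them, with a median of -0.35. HFpEF hearts had 2 matrix genes higher and 1 lower, with a median of -0.33. The count was 29 without control 1, 14 and 17 without its replicates 2 and 3, and 22, 11 and 20 without treated replicates 1, 2 and 3.

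Among matrix genes, Col1a1, the main chain of fibrillar collagen, stood at 496, 9900.5 and 7974 CPM in the controls and 411, 236 and 333 CPM in treated hearts (log2FC -4.23 ± 0.96, adjusted p = 0.0106). Col3a1, the collagen of reticular fibres, stood at 1319.9, 25573 and 20226 and 1479, 748 and 1365 CPM (log2FC -3.71 ± 0.80, adjusted p = 0.00848). Postn, a matrix protein of activated fibroblasts, stood at 45.6, 4079 and 3528 and 27.1, 83.4 and 57.1 CPM (log2FC -5.51 ± 1.42, adjusted p = 0.0181). In all of these control 1 was close to or inside the treated range and replicates 2 and 3 were far above it. Thbs4, a thrombospondin of stressed heart, stood at 4.15, 257 and 235 and 1.06, 4.30 and 5.22 CPM (log2FC -5.53 ± 1.63, adjusted p = 0.0321), and Cilp, a matrix protein that binds TGF-beta, at 8.86, 277 and 267 and 6.03, 8.13 and 10.6 CPM (log2FC -4.48 ± 1.09, adjusted p = 0.0145). The calls of Col1a1 (adjusted p 0.0621) and Col3a1 (adjusted p 0.0528) ended without treated 2. Each ended in 2 of the alternatives tried, the other being none that left out a single library (adjusted p 0.0658 for Col3a1). The calls of Postn (adjusted p 0.0521 to 0.0700) and Thbs4 (adjusted p 0.0841 to 0.113) ended without control 2 or 3 or treated 1, 2 or 3. The call of Cilp ended without control 2 or 3 or treated 2 or 3 (adjusted p 0.0506 to 0.0700). Fold changes without control 1 were -4.75 for Col1a1, -4.24 for Col3a1 and -6.06 for Postn on the log2 scale.

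Beyond both healthy groups lay 3 matrix genes. Col8a1, a short-chain collagen of vessel walls, had 24.7, 421 and 343 CPM in the controls and 12.3, 8.85 and 12.8 CPM in treated hearts, under the 13.3, 14.6 and 26.6 CPM of older healthy hearts (log2FC -4.53 ± 0.86, adjusted p = 0.00526). Loxl1, an enzyme that cross-links elastin, named after its values were seen, fell from 70.2, 664 and 531 to 28.5, 22.6 and 22.3 CPM (log2FC -4.11 ± 0.75, adjusted p = 0.00463). Col4a1, a basement membrane collagen, fell from 966, 1975 and 1958 to 788, 640.1 and 718 CPM (log2FC -1.19 ± 0.23, adjusted p = 0.00565), and here the older healthy hearts held 1299, 1334 and 1136 CPM. In these 3 genes every treated library lay under every control library, control 1 included, and the calls held without any 1 of the 6 libraries, but that of Col4a1 ended with the 6 libraries alone (adjusted p 0.0600).

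Fibroblast markers moved with the matrix. Of 12 markers, all present in the files, 7 fell (6.22% of all genes) and none rose, with a median of -2.05. Their summed level was 8474, 45239.7 and 37054 CPM in the controls and 11279, 4122 and 7994 CPM in treated ones, so that control 1 lay inside the treated range. Col3a1 was the most abundant, and no marker was at 0 in all 6 libraries. Mfap5, a protein of elastic microfibrils, had 57.7, 344 and 275 against 25.3, 17.1 and 27.5 CPM, all treated libraries lower (log2FC -3.27 ± 0.72, adjusted p = 0.00954). Col1a2, the partner chain of Col1a1, had 33.7, 474 and 373 against 28.97, 23.9 and 49.3 CPM, with control 1 inside the treated range (log2FC -3.11 ± 0.81, adjusted p = 0.0196). The call of Mfap5 ended without treated 2 (adjusted p 0.0579). The call of Col1a2 ended without control 2 or 3 or treated 1 or 2 (adjusted p 0.0532 to 0.0941). Fewer cells of a type and less RNA per cell cannot be told apart in whole tissue, and the part of fibroblast number in the matrix result was not tested. The fibroblast count was 8 without control 1, 5 without its replicate 2 or 3, and 1 without treated 2.

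In the TGF-beta pathway, which drives scar formation, 4 of 24 genes fell and none rose, with a median of -0.38. Of all genes 6.22% fell. Tgfb1, the ligand itself, was at 50.2, 73.4 and 80.1 CPM in the controls and 37.5, 31.2 and 31.97 CPM in treated hearts, without overlap (log2FC -1.02 ± 0.18, adjusted p = 0.00425). Tgfb3, another ligand, was at 68.7, 376 and 318 and 68.7, 39.8 and 70.7 CPM, with control 1 inside the treated range (log2FC -2.09 ± 0.60, adjusted p = 0.0289). Ltbp2, a microfibril protein, was at 8.76, 772 and 639 and 4.02, 14.2 and 10.8 CPM (log2FC -5.61 ± 1.62, adjusted p = 0.0299), and Ltbp3, which holds the ligand in the matrix, at 86.1, 367 and 308 and 109, 75.8 and 82.3 CPM (log2FC -1.51 ± 0.47, adjusted p = 0.0387), both with control 1 inside the treated range. The call of Tgfb1 ended without control 2 or 3 or treated 2 or 3 (adjusted p 0.0205 to 0.0276, absolute log2FC down to 0.88). The calls of Tgfb3 (adjusted p 0.0545 to 0.132), Ltbp2 (adjusted p 0.0783 to 0.0989) and Ltbp3 (adjusted p 0.0548 to 0.180) ended without control 2 or 3 or treated 1, 2 or 3. That of Tgfb1 also ended without any 1 of 3 libraries of the other groups (adjusted p 0.00613 to 0.00733). That of Ltbp3 also ended without any 1 of 3 libraries of the other groups (adjusted p 0.0519 to 0.0521). The list had no call without control 2 or 3 or treated 2 or 3, and 2 higher and 6 lower without control 1.

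Macrophage markers were lower, with 9 of 13 called, none higher, against 6.22% of all genes falling, and a median of -1.60. Their summed level was 851, 2507 and 2051 CPM in the controls and 402, 402 and 603 CPM in treated ones, with Lyz2 the most abundant and no marker at 0 in all 6 libraries. Lyz2, a lysozyme of phagocytes, had 261, 1451 and 1125 CPM in the controls and 110.2, 134 and 146 CPM in treated hearts (log2FC -2.86 ± 0.63, adjusted p = 0.00922). Adgre1, the F4/80 antigen of macrophages, had 29.02, 57.03 and 48.8 and 12.5, 6.58 and 12.3 CPM (log2FC -2.10 ± 0.47, adjusted p = 0.0101). C1qa, a complement subunit that macrophages secrete, had 79.2, 164 and 154 and 32.8, 25.5 and 48.1 CPM (log2FC -1.90 ± 0.46, adjusted p = 0.0146), and Cd68, a lysosomal protein, 16.6, 40.4 and 33.2 and 8.28, 4.90 and 9.30 CPM (adjusted p = 0.0147). The call of Adgre1 ended without control 2 or treated 2 (adjusted p 0.0509 to 0.0613). The calls of C1qa (adjusted p 0.0560 to 0.0777) and Cd68 (adjusted p 0.0525 to 0.0791) ended without control 2 or 3 or treated 2. The list's count was 10 without control 1, 2 and 3 without its replicates 2 and 3, and 2 without treated 2. Older healthy hearts were lower than the 5-week hearts in 8 of the 13, with a median of -1.64, and none was called between them and treated hearts.

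Called genes of secreted inflammatory signals went both ways. Among 28 tested cytokines and chemokines 3 rose and 3 fell, against 3.03% of all genes rising and 6.22% falling, with a median of 0.03. Cxcl14, a chemokine of epithelial and fat tissue, rose from 0.565, 0.543 and 0.637 to 10.9, 6.34 and 14.6 CPM (log2FC 4.16 ± 0.59, adjusted p = 0.00126). Cxcl2, which attracts neutrophils, had 0.377, 0.155 and 0.239 against 1.89, 0.478 and 2.72 CPM (log2FC 2.70 ± 0.77, adjusted p = 0.0281), and Ccl5, which attracts T cells, 5.94, 4.42 and 8.04 against 21.2, 10.5 and 22.8 CPM (log2FC 1.57 ± 0.44, adjusted p = 0.0271). Neither overlapped, and treated 2 was the lowest of its group in both. Cxcl16, a membrane-bound chemokine of macrophages, fell from 53.2, 135 and 115 to 29.2, 21.5 and 38.3 CPM (log2FC -1.77 ± 0.28, adjusted p = 0.00279). Named after their values were seen, Csf1, a macrophage growth factor, had 51.2, 76.7 and 72.1 against 35.2, 21.2 and 29.3 CPM (log2FC -1.22 ± 0.20, adjusted p = 0.00330), and Ccl6, a macrophage chemokine, 20.4, 46.4 and 39.2 against 15.8, 9.80 and 15.3 CPM (log2FC -1.37 ± 0.37, adjusted p = 0.0221), all treated values lower. The call of Cxcl2 ended without control 2 or 3 or treated 3 (adjusted p 0.10004 to 0.128). The call of Ccl5 ended without control 2 or 3 or treated 1 or 3 (adjusted p 0.0560 to 0.128). The call of Ccl6 ended without control 2 or 3 or treated 2 or 3 (adjusted p 0.0585 to 0.113). Il1b, a central inflammatory cytokine, had 3.11, 6.21 and 5.89 against 4.73, 3.95 and 2.93 CPM, overlapping, at an adjusted p of 0.568.

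Of all genes 3.03% rose and 6.22% fell. Of 18 tested targets of NF-kB, the transcription factor of inflammatory signalling, 1 rose and 3 fell, with a median of -0.16. The one that rose was Nfkbia, the inhibitor that ends the signal, from 90.3, 84.6 and 91.8 to 234, 386 and 407 CPM (log2FC 1.95 ± 0.25, adjusted p = 0.000584). It remained under the 765, 863 and 527 CPM of older healthy hearts. Tnfaip2, induced by tumour necrosis factor, fell from 43.2, 43.6 and 45.9 to 17.5, 14.5 and 20.2 CPM, without overlap (log2FC -1.35 ± 0.24, adjusted p = 0.00442). Cd83, a marker of activated dendritic cells, had 8.86, 21.1 and 20.1 against 8.63, 3.83 and 4.07 CPM, and Nfkbie, another inhibitor of the pathway, 9.61, 19.7 and 17.03 against 8.87, 5.98 and 6.06 CPM, both narrowly free of overlap at control 1 (log2FCs -1.60 and -1.15). The calls of Cd83 (adjusted p 0.0561 to 0.0715) and Nfkbie (adjusted p 0.0554 to 0.0786, absolute log2FC down to 0.94) ended without control 2 or 3 or treated 2 or 3.

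The rat major histocompatibility genes, which present peptides to T cells, held very large rises. Of 36 tested genes of the list 6 rose and 3 fell, against 3.03% of all genes rising and 6.22% falling. RT1-CE16, a class I heavy chain, had 0.0942, 0 and 0 CPM in control 5-week and 50.4, 36.8 and 75.2 CPM in treated hearts, that is 1 count against 1454 over the groups. The ratio was 1987, with an exact 95% counting interval of 356 to 78537, at an adjusted p of 2.17e-08. RT1-Bb, a class II chain, had no count in the controls and 14.3, 8.37 and 23.6 CPM in treated hearts, at least 190.0-fold higher when the controls are set to a floor of 3 counts over the group (adjusted p = 0.000328). RT1-A3, another class I chain, was at 0.0942, 0 and 0 against 2.37, 2.39 and 5.33 CPM, or 1 count against 91, a ratio of 124 with an interval of 21.8 to 4965 (adjusted p = 0.000572). These intervals and floors cover counting error only. HFpEF hearts were as near 0 as the controls, at 0.215, 0.0917 and 0.268 CPM of RT1-CE16, whereas control 9-week hearts held 104, 101 and 91.03 CPM. Untreated week 9 hearts held 61.5, 55.5 and 64.9 CPM of it, those given PFD alone 50.7 and 56.1 CPM, and those given EMPA alone 0 and 0 CPM. Genes of this family are near-identical in sequence and differ between animals, so their assigned counts are uncertain.

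RT1-A1 (log2FC 1.58), RT1-CE2 (1.86) and the peptide transporter Tap2 (1.41) also rose, while RT1-A2 (-1.53), RT1-Da (-1.91) and RT1-Db1 fell, all but RT1-Db1 named after their values were seen. RT1-Db1, a class II chain carried mainly by antigen-presenting cells, went from 43.4, 97.9 and 94.5 to 26.4, 10.9 and 16.2 CPM without overlap (log2FC -2.14 ± 0.44, adjusted p = 0.00714). B2m, the shared light chain of class I and the most abundant of the list, lay within 2-fold (log2FC 0.03). The call of RT1-CE2 ended without control 2 or 3 or treated 3 (adjusted p 0.0525 to 0.135). The call of RT1-Da ended without control 2 or 3 or treated 2 or 3 (adjusted p 0.0552 to 0.0885). That of RT1-A2 held without any 1 library but ended in 1 other alternative (adjusted p 0.0736). The list's lower count was 7 without control 1 and 6 without treated 1, and its higher count ranged from 5 to 8 without any 1 of the 6 libraries.

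Many genes of cell division fell, some of them below both healthy states. Of 27 tested cell cycle genes, 15 fell (6.22% of all genes) and none rose, with a median of -1.58, 21 had no overlap between groups against 35.3% of all genes, and 11 of the 15 lay under all 6 control libraries. Cdk1, the kinase that starts mitosis, was at 4.52, 15.2 and 16.7 CPM in the controls and 1.06, 1.43 and 2.19 CPM in treated hearts (log2FC -2.94 ± 0.62, adjusted p = 0.00799). Mki67, the proliferation antigen, was at 25.2, 51.2 and 52.05 and 4.26, 6.34 and 8.46 CPM (log2FC -2.75 ± 0.45, adjusted p = 0.00308), a gene named after its values were seen. In both, control 1 was the lowest control and each treated library was lower still. Rrm2, a subunit of the enzyme that makes the building blocks of DNA, was at 3.49, 21.1 and 16.2 and 0.473, 1.67 and 1.46 CPM (log2FC -3.48 ± 0.79, adjusted p = 0.0104), Cenpf, a kinetochore protein, at 3.86, 18.2 and 19.3 and 0.946, 1.32 and 1.88 CPM (log2FC -3.31 ± 0.78, adjusted p = 0.0127), and Ccnb2, a mitotic cyclin, at 1.88, 6.83 and 5.49 and 0.473, 0.120 and 0.836 CPM (log2FC -3.26 ± 0.74, adjusted p = 0.0106). The call of Rrm2 ended without control 2 (adjusted p 0.0516). The call of Cenpf ended without control 2 or 3 or treated 2 (adjusted p 0.0505 to 0.0625). The call of Ccnb2 ended without control 2 or treated 2 (adjusted p 0.0519 to 0.0589). Older healthy hearts had 6 of 27 lower than at week 5, with a median of -0.99, HFpEF hearts 1, and treated against older healthy hearts gave 4 lower and 1 higher, with a median of -0.99. The count was 18 without control 1, 8 without its replicate 2, 10 without its replicate 3 and 8 without treated 2. How much of this followed the lower macrophage and fibroblast markers was not tested.

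Immediate early genes, transcribed within minutes of a stimulus, rose broadly. Of 25 genes 15 rose and none fell, against 3.03% of all genes rising, with a median of 1.22. Above both healthy groups lay 7 of them, against 141 of all 12388 genes. Nr4a1, an orphan nuclear receptor, was at 19.1, 15.5 and 17.3 CPM in the controls and 212, 162 and 100.4 CPM in treated hearts (log2FC 3.19 ± 0.34, adjusted p = 0.000238). Its relative Nr4a3 was at 3.11, 3.96 and 4.14 and 4.97, 53.4 and 33.4 CPM (log2FC 3.03 ± 0.63, adjusted p = 0.00745), where treated 1 lay only just above the controls. Atf3, a stress-induced repressor, was at 6.31, 13.3 and 14.5 and 27.3, 126 and 49.1 CPM (log2FC 2.56 ± 0.54, adjusted p = 0.00787), and Fos, a subunit of AP-1, at 1.88, 13.97 and 11.9 and 43.99, 38.97 and 79.7 CPM (log2FC 2.54 ± 0.74, adjusted p = 0.0305), both free of overlap. The call of Fos ended without control 2 or 3 or treated 2 or 3 (adjusted p 0.0637 to 0.0956). With the 6 libraries alone those of Nr4a3, Atf3 and Fos ended (adjusted p 0.0516 to 0.0585). HFpEF hearts had 13 of the 25 higher than control 5-week hearts, with a median of 1.38, and older healthy hearts 11, with a median of 0.91. Between treated and older healthy hearts 4 were higher and 2 lower. Untreated week 9 hearts held 190, 342 and 227 CPM of Nr4a1 and 6.22, 11.3 and 6.53 CPM of Nr4a3. They held 49.5, 78.8 and 80.9 CPM of Atf3 and 46.4, 117 and 82.6 CPM of Fos. No untreated value of these genes lay below the treated range. Without any 1 of the 6 libraries the higher count ranged from 11 to 13.

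Of 18 tested clock genes 2 rose, against 3.03% of all genes. Per1, a repressor of the clock that also answers to glucocorticoids, went from 54.9, 71.9 and 72.2 to 159, 367 and 327 CPM, still under the 475, 554 and 424 CPM of older healthy hearts (log2FC 2.10 ± 0.32, adjusted p = 0.00198). Usp2, a clock-controlled deubiquitinase, had 53.8, 31.04 and 28.7 against 42.2, 135 and 128 CPM, with treated 1 inside the control range (log2FC 1.43 ± 0.39, adjusted p = 0.0247). The call of Usp2 ended without control 2 or 3 or treated 2 or 3 (adjusted p 0.0826 to 0.115). Without treated 1, the list had 5 higher and 2 lower. Arntl, the activator of the clock, had 32.6, 59.2 and 62.4 CPM in the controls and 73.6, 12.2 and 5.01 CPM in treated hearts, so treated 1 lay above all controls and the other treated libraries below them. Dbp, an output gene, had 103, 45.2 and 45.8 against 41.9, 94.2 and 152 CPM, again with treated 1 apart from replicates 2 and 3. Neither was called, but Arntl was called lower without treated 1 (log2FC -2.56). The hour at which each heart was taken is not in the labels, and its part in these values was not tested.

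Stress-response lists held 5 calls, all rises (3.03% of all genes rose). Herpud1, which clears misfolded proteins from the endoplasmic reticulum, rose from 178, 126 and 124 to 249, 469 and 450.4 CPM (log2FC 1.45 ± 0.28, adjusted p = 0.00580), and Ddit4, an inhibitor of mTOR, from 30.6, 59.3 and 66.5 to 78.99, 198 and 144 CPM (log2FC 1.43 ± 0.34, adjusted p = 0.0136), the 2 calls among 25 genes of the unfolded protein and integrated stress response. Of 26 antioxidant genes 2 rose, Cat, the catalase of peroxisomes, from 318, 202 and 213 to 391, 626 and 548 CPM (log2FC 1.09 ± 0.28, adjusted p = 0.0168) and Gsta1, a glutathione transferase, from 32.6, 35.5 and 30.1 to 62.2, 76.4 and 92.5 CPM (log2FC 1.23 ± 0.20, adjusted p = 0.00259). Of 21 chaperones 1 rose, Bag3, which supports the folding of sarcomere proteins, from 254, 215 and 223 to 502, 530.1 and 449 CPM (log2FC 1.10 ± 0.29, adjusted p = 0.0218). The call of Ddit4 ended without treated 2 (adjusted p 0.0730). The calls of Cat (adjusted p 0.0754 to 0.0908, absolute log2FC down to 0.96) and Bag3 (adjusted p 0.0726 to 0.0946) ended without control 2 or 3 or treated 2. Without treated 1 the 25 genes had 4 higher and 2 lower, and without control 1, 2 of them were lower. Cat and Bag3 also exceeded the older healthy hearts, by log2FCs of 1.49 and 1.19.

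Cardiomyocyte markers, all 12 of them tested, were abundant in both groups. Their summed level was 80141, 32794 and 36675 CPM in the controls and 60739, 85628 and 71942 CPM in treated ones, with Myh6 the most abundant, so that control replicates 2 and 3 were the lowest and replicate 1 lay inside the treated range. Of the 12 markers, 1 was called, with a median of 0.43. Ryr2, the calcium release channel, rose from 1378, 1092 and 1129 to 1979, 3469.9 and 2389.8 CPM, without overlap (log2FC 1.12 ± 0.33, adjusted p = 0.0321), and also lay above older healthy hearts. Myh6, the fast myosin of adult rat heart, had 21437, 4279.8 and 5367 CPM in the controls and 9191, 32560.4 and 28984 CPM in treated hearts, overlapping at control 1, with an adjusted p of 0.273 and of 0.0392 without that replicate. Myh7, the slow myosin, had 9465, 11896 and 12274 against 20537, 11283 and 4552 CPM, overlapping (adjusted p = 0.923). Atp2a2, the calcium pump of the reticulum, had 10085, 4488 and 5176 against 10066, 18286 and 14215 CPM, with an adjusted p of 0.120, or 0.0371 without control 1. The list had 3 calls without control 1. The call of Ryr2 ended without control 2 or 3 or treated 2 or 3 (adjusted p 0.0582 to 0.136, absolute log2FC down to 0.88). The part of cardiomyocyte share in other lists was not tested.

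The remaining most abundant transcripts were not called. Actc1, cardiac actin, had 24118, 11864 and 12578 CPM in the controls and 16508, 14086 and 12357 CPM in treated hearts. Mb, the oxygen store myoglobin, had 10811, 4879 and 5535 against 16670.1, 17954 and 13631 CPM, without overlap but at an adjusted p of 0.112, and Tnnt2, cardiac troponin T, 10516, 5885 and 6213 against 11517, 12001 and 8912 CPM. In each of the 3, control 1 was the highest control. Atp5f1b of ATP synthase had 7226, 4849 and 5277 against 9278, 12243 and 10214 CPM, Tpm1, tropomyosin, 10115, 4752 and 5052 against 8523, 8434 and 8236 CPM, and the ADP carrier Slc25a4 6459, 2047 and 2332 against 6628, 8056 and 6892 CPM. Mb and Slc25a4 were called higher without control 1 (adjusted p 0.0383 and 0.0265).

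Of 25 sarcomere genes 3 rose (12%), against 3.03% of all genes. Tcap, which caps titin at the Z-disc, went from 25.3, 22.6 and 32.2 to 50.97, 125 and 121 CPM (log2FC 1.89 ± 0.40, adjusted p = 0.00841), Lmod2, which lengthens thin filaments, from 23.3, 24.8 and 27.2 to 35.7, 119 and 66.8 CPM (log2FC 1.55 ± 0.47, adjusted p = 0.0369), and Mypn, a Z-disc scaffold, from 151, 96.7 and 111 to 172, 307 and 254 CPM (log2FC 1.03 ± 0.33, adjusted p = 0.0416). None overlapped, and treated 1 was the lowest treated library in each. The call of Lmod2 ended without control 1, 2 or 3 or treated 2 or 3 (adjusted p 0.0515 to 0.183). The call of Mypn ended without control 2 or 3 or treated 2 or 3 (adjusted p 0.0902 to 0.171, absolute log2FC down to 0.85). That of Mypn also ended without any 1 of 3 libraries of the other groups (adjusted p 0.0522 to 0.0547). HFpEF hearts had 7 of the 25 lower and 1 higher than control 5-week hearts, with a median of -1.14, against 0.52 in treated hearts, which exceeded the older healthy hearts in 10 of 25. The count was 5 without control 1 and 1 without its replicate 2 or 3 or treated 2 or 3.

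Calcium-handling genes had 1 call in each direction among 26, Ryr2 and Fkbp1b, a regulator of that channel, at 0.0942, 1.94 and 1.03 CPM in the controls and 0.118, 0.120 and 0.209 CPM in treated hearts. Control 1 was the lowest of the 6 for Fkbp1b, whose call rests on few counts (log2FC -2.69 ± 0.83, adjusted p = 0.0399). The call of Fkbp1b ended without control 2 or 3 or treated 1, 2 or 3 (adjusted p 0.0889 to 0.215). That of Fkbp1b also ended without any 1 of 3 libraries of the other groups (adjusted p 0.0506 to 0.0532). The list's higher count was 7 without control 1. Of 24 tested ion channels 4 rose and 2 fell, Hcn4 being among the latter, against 3.03% of all genes rising and 6.22% falling. Kcnd2, a subunit of the transient outward potassium current, rose from 4.52, 4.58 and 3.58 to 16.2, 18.5 and 21.1 CPM, with all treated libraries well above both control ages (log2FC 2.14 ± 0.39, adjusted p = 0.00463). Kcna5, of the ultrarapid current, had 4.99, 2.72 and 3.66 against 5.91, 24.5 and 32.6 CPM, narrowly free of overlap (log2FC 2.48 ± 0.59, adjusted p = 0.0134). Scn4b, a sodium channel beta subunit, had 77.5, 59.8 and 44.3 against 165, 206 and 242 CPM (log2FC 1.76 ± 0.56, adjusted p = 0.0430), and Kcnv2, a silent potassium channel subunit, fell from 13.1, 16.2 and 20.3 to 3.31, 2.63 and 3.24 CPM (log2FC -2.43 ± 0.54, adjusted p = 0.0101). Kcnd3, a relative of Kcnd2 named after its values were seen, had 56.9, 29.4 and 34.5 against 74.3, 77.6 and 103 CPM, without overlap (log2FC 1.08 ± 0.31, adjusted p = 0.0286). The calls of Kcna5 (adjusted p 0.0525 to 0.0751), Scn4b (adjusted p 0.105 to 0.155) and Kcnd3 (adjusted p 0.0700 to 0.140, absolute log2FC down to 0.89) ended without control 2 or 3 or treated 2 or 3. The call of Kcnv2 ended without treated 2 (adjusted p 0.0594). That of Scn4b also ended without any 1 of 7 libraries of the other groups (adjusted p 0.0520 to 0.0560). The list had 7 higher without control 1, and 1 without control 2 or 3 or treated 2 or 3.

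Hcn4, the pacemaker channel, separated the groups in a graded way. It was at 48.05, 54.7 and 58.97 CPM in control 5-week, 18.6, 24.7 and 14.3 CPM in treated, 4.52, 1.65 and 3.04 CPM in HFpEF and 1.35, 0.369 and 2.49 CPM in control 9-week hearts. Treated hearts lay under every control 5-week and above every HFpEF and control 9-week library, at a log2FC of -1.49 ± 0.42 from the former (adjusted p = 0.0281) and 3.72, adjusted p = 0.000532 from the 9-week controls. The call of Hcn4 ended without control 2 or 3 or treated 1, 2 or 3 (adjusted p 0.0646 to 0.107). It was the single call among 13 tested markers of atrial and conduction tissue, whose summed level of 3636, 6801 and 5257 CPM in the controls and 412, 841 and 468 CPM in treated hearts had Nppa as its most abundant gene, with Isl1 at 0 in all 6 libraries. Nppa, the atrial natriuretic peptide, had 2583, 5794 and 4311 CPM against 60.8, 376 and 134 CPM, without overlap but with a spread in other groups, such as 3622, 173 and 16876 CPM in control 9-week hearts, and an adjusted p of 0.119. With the 6 libraries alone its adjusted p was 0.0306, and with DESeq2 it was 0.0268. Nppb, the B-type peptide released by stretched ventricle, fell from 473, 517 and 492 to 136, 139 and 75.7 CPM, the 1 call among 18 fetal and hypertrophy genes (log2FC -2.08 ± 0.65, adjusted p = 0.0398). The call of Nppb ended without control 2 or 3 or treated 1, 2 or 3 (adjusted p 0.0693 to 0.130).

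**Figure D3:**
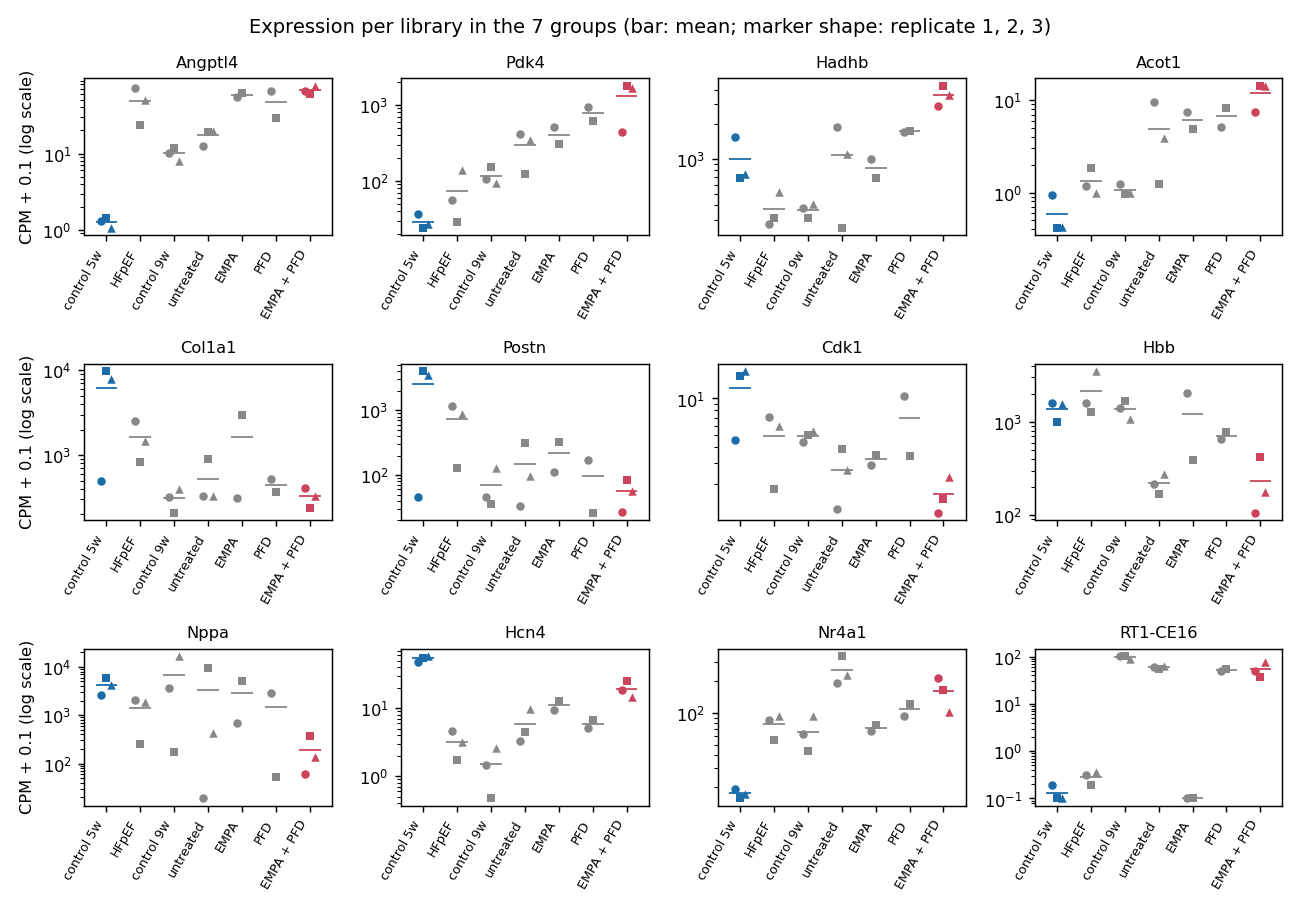
CPM plus 0.1 on a log axis for 12 genes in each library of the 7 groups, with bars at the group mean and marker shapes for replicates 1, 2 and 3. Angptl4 and Nr4a1 are higher in treated than in control 5w hearts in all libraries, control 5w replicate 1 is apart from replicates 2 and 3 in Col1a1 and Postn, and Hcn4 in treated hearts lies between control 5w and all other libraries.

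Genes of nitric oxide and cyclic GMP, the pathway that L-NAME blocks, included calls in both directions. Ddah1, which breaks down an endogenous synthase inhibitor, fell from 65.95, 136 and 124 to 28.6, 31.7 and 28.8 CPM, less far than the 20.7, 7.79 and 13.6 CPM of HFpEF hearts (log2FC -1.87 ± 0.42, adjusted p = 0.00996). Ddah2, its relative, fell from 106, 127 and 125 to 71.7, 42.2 and 26.1 CPM (log2FC -1.36 ± 0.26, adjusted p = 0.00550), without overlap, though not called with the 6 libraries alone (adjusted p 0.0563). Prkg1, the kinase activated by cyclic GMP, had 5.18, 4.11 and 5.57 against 5.44, 15.4 and 10.6 CPM, overlapping at replicate 1 (log2FC 1.08 ± 0.33, adjusted p = 0.0379). The call of Ddah1 ended without control 2 (adjusted p 0.0515). The call of Prkg1 ended without control 2 or 3 or treated 2 or 3 (adjusted p 0.0832 to 0.195, absolute log2FC down to 0.71).

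Among genes of the renin-angiotensin system and sodium handling, Sgk1, a kinase induced by mineralocorticoids, rose from 50.1, 61.4 and 61.3 to 232, 127 and 155 CPM, still under the 479, 536 and 330.2 CPM of older healthy hearts (log2FC 1.57 ± 0.22, adjusted p = 0.000967). Agtr1a, the angiotensin receptor, fell from 7.91, 20.8 and 17.7 to 5.08, 3.95 and 7.73 CPM (log2FC -1.46 ± 0.46, adjusted p = 0.0416). Groups did not overlap in either gene. Pde4d, which degrades cyclic AMP, was the 1 call among 19 adrenergic and endothelin genes, at 19.6, 15.1 and 17.6 against 19.4, 43.995 and 43.04 CPM (log2FC 1.03 ± 0.28, adjusted p = 0.0244), with treated 1 inside the control range. The call of Agtr1a ended without control 2 or 3 or treated 1, 2 or 3 (adjusted p 0.0592 to 0.174). The call of Pde4d ended without control 2 or 3 or treated 2 or 3 (adjusted p 0.0818 to 0.115, absolute log2FC down to 0.86). That of Agtr1a also ended without any 1 of 5 libraries of the other groups (adjusted p 0.0501 to 0.0540). Without control 1, 4 adrenergic and endothelin genes were called higher.

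Of 26 angiogenesis genes 1 rose and 1 fell, 7.69% in all, no more than the 9.25% of all genes called. Angpt1, which stabilises vessels, had 22.2, 14.97 and 15.4 CPM in the controls and 29.6, 57.03 and 58.2 CPM in treated hearts (log2FC 1.46 ± 0.46, adjusted p = 0.0427), and Vegfd, a lymphatic growth factor, 21.9, 46.6 and 43.5 against 14.3, 11.96 and 15.9 CPM (log2FC -1.41 ± 0.42, adjusted p = 0.0351). Both were free of overlap. In the list of muscle protein turnover 3 of 19 rose, against 3.03% of all genes, with a median of 0.71. Trim63, the ubiquitin ligase MuRF1, went from 168, 105 and 121 to 247, 372 and 292 CPM (log2FC 1.21 ± 0.32, adjusted p = 0.0194) and Map1lc3a, a coat protein of autophagosomes, from 355, 257 and 271 to 611, 762 and 529 CPM (log2FC 1.11 ± 0.32, adjusted p = 0.0306), both without overlap. Klhl38, a muscle protein of atrophy, had 33.3, 16.99 and 18.5 against 29.2, 68.5 and 57.4 CPM, overlapping at replicate 1 (log2FC 1.18 ± 0.37, adjusted p = 0.0419). The calls of Angpt1 (adjusted p 0.117 to 0.161) and Klhl38 (adjusted p 0.103 to 0.176, absolute log2FC down to 0.94) ended without control 2 or 3 or treated 2 or 3. The call of Vegfd ended without control 2 or 3 or treated 1, 2 or 3 (adjusted p 0.0719 to 0.142). The calls of Trim63 (adjusted p 0.0817 to 0.101) and Map1lc3a (adjusted p 0.112 to 0.131, absolute log2FC down to 0.97) ended without control 2 or 3 or treated 2. That of Angpt1 also ended without any 1 of 4 libraries of the other groups (adjusted p 0.0530 to 0.0562). That of Klhl38 also ended without any 1 of 4 libraries of the other groups (adjusted p 0.0505 to 0.0554). The turnover list had 6 calls without control 1.

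Among red cell transcripts, Hbb and Alas2 lay below both healthy states, as they also did in untreated hearts of week 9. Of 7 tested erythroid markers 2 fell, against 6.22% of all genes, with a median of -1.40. Hbb, the beta chain of haemoglobin, was at 1581, 988 and 1557 CPM in the controls and 105, 417 and 176 CPM in treated hearts, against 1404, 1688 and 1077 CPM in older healthy and 1601, 1269 and 3531 CPM in HFpEF hearts (log2FC -2.57 ± 0.59, adjusted p = 0.0113). Alas2, the first enzyme of haem synthesis in red cells, was at 39.1, 14.4 and 26.8 and 2.13, 10.2 and 3.66 CPM (log2FC -2.33 ± 0.61, adjusted p = 0.0195). The call of Hbb ended without treated 3 (adjusted p 0.0509). The call of Alas2 ended without control 3 or treated 1 or 3 (adjusted p 0.0567 to 0.0795). Untreated week 9 hearts held 213, 170.5 and 279 CPM of Hbb and 4.43, 2.68 and 3.90 CPM of Alas2, all within the treated range. The list had 3 calls without treated 2 and none without treated 3. The erythroid sum was 1899, 1091 and 1695 CPM in the controls and 257, 527 and 347 CPM in treated hearts, with Hbb the most abundant and Hba1 at 0 in all 6 libraries. How much blood each heart held was not tested.

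The largest rises among called genes without overlap also held genes outside the lists. Pik3c2g, a lipid kinase, rose from 12.9, 2.41 and 2.86 to 277, 298 and 289 CPM, with HFpEF and older healthy hearts near the controls at 3.37, 8.53 and 11.2 and 1.80, 4.80 and 1.60 CPM (log2FC 5.59 ± 1.05, adjusted p = 0.00499). The gene lay beyond both healthy states, but was also at 144, 2.60 and 44.7 CPM in untreated week 9 hearts, 174 and 125 CPM with EMPA alone and 87.6 and 44.3 CPM with PFD alone. Vsnl1, a neuronal calcium sensor, went from 0.283, 0.155 and 0.0796 to 5.91, 11.5 and 12.7 CPM (log2FC 5.81 ± 1.11, adjusted p = 0.00526), but older healthy hearts reached 6.20, 2.34 and 25.9 CPM. Acsm5, a mitochondrial ligase of medium-chain fatty acids, had no count in the controls and 2.25, 5.86 and 6.79 CPM in treated hearts, at least 60.6-fold higher (adjusted p = 0.0110). Tas2r120, a bitter taste receptor, likewise had no count against 5.79, 5.26 and 3.13 CPM, at least 56.03-fold higher (adjusted p = 0.00207). Slc9a2, a sodium-proton exchanger, was at 0.0942, 0 and 0.0796 against 2.01, 5.86 and 2.61 CPM, or 2 counts against 91, a ratio of 62.2 with a counting interval of 16.7 to 521 (adjusted p = 0.00585). Untreated week 9 hearts held 8.86, 0.244 and 1.69 CPM of Acsm5 and 4.22, 0.568 and 0.632 CPM of Slc9a2. Older healthy hearts held 2.82, 0.615 and 2.09 CPM of Tas2r120. Both they and HFpEF hearts were called higher than control 5-week hearts in Tas2r120. Treated and older healthy hearts did not differ by call in that gene (adjusted p = 0.128). Ibsp, a bone matrix protein, had no count in the controls and 2.01, 1.08 and 1.57 CPM in treated hearts, but was not called (adjusted p = 0.271).

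Among the largest falls, C1qtnf3, a secreted relative of complement, went from 1.32, 320.4 and 288 to 0.237, 0.359 and 0.209 CPM (log2FC -9.52 ± 1.90, adjusted p = 0.00635), and control 1 was nearer the treated libraries than the other controls. The same order held for Aard, an alanine- and arginine-rich protein, at 0.565, 20.1 and 18.1 against 0, 0 and 0.104 CPM, or 492 counts against 1, a ratio of 360.0 with an interval of 64.3 to 14248 (adjusted p = 0.00385). P4ha3, a collagen prolyl hydroxylase, had 0.565, 18.5 and 17.3 against 0.355, 0.359 and 0.522 CPM (log2FC -4.83 ± 1.06, adjusted p = 0.00954). Prrx2, a homeobox gene of mesenchyme, had 1.98, 13.9 and 10.5 against 0.118, 0.239 and 0.209 CPM (log2FC -5.45 ± 1.14, adjusted p = 0.00759), and Fcrl2, an Fc-receptor-like gene, 3.49, 34.99 and 25.1 against 0.237, 0.717 and 1.46 CPM (log2FC -4.67 ± 1.10, adjusted p = 0.0129). Ccn4, a matricellular protein downstream of WNT, was at 0.754, 6.44 and 5.65 against 0, 0.120 and 0 CPM, or 162 counts against 1, a ratio of 119 with an interval of 20.98 to 4711 (adjusted p = 0.0193). A4galt, a glycolipid synthase, had 1.41, 6.91 and 5.41 against 0.237, 0 and 0.209 CPM (log2FC -4.82 ± 1.00, adjusted p = 0.00745), and Spp1, osteopontin, 14.5, 141 and 107 against 0.355, 3.71 and 4.39 CPM (log2FC -4.94 ± 1.58, adjusted p = 0.0440). The olfactory receptor Olr1424 was at 1.51, 2.87 and 3.58 CPM in the controls and had no count in treated hearts, at least 23.9-fold lower (adjusted p = 0.00454). Older healthy and HFpEF hearts were also called lower than control 5-week hearts in C1qtnf3 (log2FCs -8.40 and -5.16), Aard (-5.79 and -5.48), Olr1424 (-5.77 and -6.07), P4ha3 and A4galt. Prrx2 and Fcrl2 were called lower in older healthy hearts only, and Ccn4 and Spp1 in neither. None of these genes was called between treated and older healthy hearts. The call of P4ha3 ended without treated 2 (adjusted p 0.0538). The call of Fcrl2 ended without control 2 or treated 2 (adjusted p 0.0576 to 0.0651). The calls of Ccn4 (adjusted p 0.0513 to 0.0754) and Spp1 (adjusted p 0.104 to 0.134) ended without control 2 or 3 or treated 1, 2 or 3. That of Spp1 also ended without any 1 of 5 libraries of the other groups (adjusted p 0.0520 to 0.0571).

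Of the 5 most abundant genes that fell beyond both healthy states, Vim, Serpinh1 and Emp1 were not described above. Vim, the intermediate filament of non-muscle cells, went from 848, 1529.6 and 1366 to 449.7, 514 and 604 CPM, under the 1095, 1142 and 1107 CPM of older healthy hearts (log2FC -1.26 ± 0.29, adjusted p = 0.0121). Serpinh1, the collagen chaperone, went from 555, 1358 and 1240.3 to 379.6, 256 and 339 CPM (log2FC -1.69 ± 0.28, adjusted p = 0.00308). Emp1, a membrane protein of growth-stimulated cells, went from 384, 912 and 835 to 207, 157 and 198 CPM (log2FC -1.92 ± 0.35, adjusted p = 0.00463). The call of Vim ended without control 2 or treated 2 (adjusted p 0.0589 to 0.0661). Vim and Emp1 were also called lower than in control 9-week hearts, at log2FCs of -1.09 and -1.07, and Serpinh1 was not (-0.64). Of the 1146 called genes, 706 were not beyond both healthy states, 234 higher and 472 lower than at week 5. Sources do not state the strand used for counting, and genes that overlap another, such as Acsm5, Cxcl16, Atf3, Rrm2 and Col1a1, may share reads with it.

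Promoter sequences from the RefSeq table of build GRCr8, each 300 bases around a gene start, were searched for short motifs in the lists that moved together, after the values were seen. The cyclic AMP response element TGACGTCA, a palindrome that reads alike on both strands and is bound by CREB, was in 612 of 33469 promoters (1.83%). Of 25 immediate early genes 17 had a promoter in the table, and 5 of these held the motif, among them 3 of the 11 matched genes that rose. These were Btg2, which restrains cell division, at 70.4, 62.9 and 68.7 CPM in the controls and 355, 405 and 267 CPM in treated hearts, Dusp1, a phosphatase that ends MAP kinase signals, at 102, 91.2 and 86.9 and 432, 282 and 319.8 CPM, and Ier2, a nuclear factor, at 39.5, 40.3 and 40.7 and 126, 63.96 and 81.9 CPM. All treated values exceeded all controls, with log2FCs of 2.35, 1.89 and 1.17. Without treated 1, Ier2 fell short of 2-fold (log2FC 0.88). The promoters of the 2 with the larger rise are shown, Btg2 at chr13:48087641-48087940, minus strand, with the element from base 50, and Dusp1 at chr10:17184603-17184902, plus strand, from base 127, with the element in capitals.
Btg2: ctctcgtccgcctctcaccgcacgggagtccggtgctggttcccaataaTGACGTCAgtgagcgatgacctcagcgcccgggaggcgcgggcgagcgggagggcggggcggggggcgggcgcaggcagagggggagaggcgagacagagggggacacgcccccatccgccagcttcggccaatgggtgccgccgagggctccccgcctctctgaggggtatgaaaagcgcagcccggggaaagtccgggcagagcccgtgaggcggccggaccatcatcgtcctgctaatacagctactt
Dusp1: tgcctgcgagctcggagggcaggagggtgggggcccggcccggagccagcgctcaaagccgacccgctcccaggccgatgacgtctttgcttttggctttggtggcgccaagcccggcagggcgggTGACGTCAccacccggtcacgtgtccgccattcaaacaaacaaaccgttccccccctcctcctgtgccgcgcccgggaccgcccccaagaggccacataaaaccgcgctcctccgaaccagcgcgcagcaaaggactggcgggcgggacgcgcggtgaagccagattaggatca

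For the cell cycle list the letters TTTCGCGC, or GCGCGAAA on the other strand, a form of the site bound by E2F factors, were in 109 of the 33469 promoters (0.326%). They were in 6 of 21 matched cell cycle genes, Cdk1, Mcm2, Mcm3, Mcm5, Mcm6 and Mcm7, of which Cdk1 and Mcm3 fell, 2 of 12 matched genes that fell. Mcm3, a subunit of the helicase that opens DNA for copying, had 16.7, 21.2 and 20.8 CPM in the controls and 6.39, 4.54 and 11.8 CPM in treated hearts (log2FC -1.36 ± 0.34, adjusted p = 0.0159), all treated libraries lower. The call of Mcm3 ended without control 2 or 3 or treated 2 (adjusted p 0.0585 to 0.0839). Mcm6 was called lower without control 1 or treated 1 or 3 (log2FCs -1.03, -1.01 and -1.12). Cdk1 lies at chr20:19265043-19265342, plus strand, with the letters from base 118 in capitals. A match is a description and shows neither a bound site nor a cause. The direct repeat of AGGTCA with 1 base between its copies, read on both strands, is the textbook element of PPAR-alpha and was in 18 promoters (0.0538%), in none of the 38 matched genes among 44 of fatty acid oxidation and the PPAR-alpha list.
Cdk1: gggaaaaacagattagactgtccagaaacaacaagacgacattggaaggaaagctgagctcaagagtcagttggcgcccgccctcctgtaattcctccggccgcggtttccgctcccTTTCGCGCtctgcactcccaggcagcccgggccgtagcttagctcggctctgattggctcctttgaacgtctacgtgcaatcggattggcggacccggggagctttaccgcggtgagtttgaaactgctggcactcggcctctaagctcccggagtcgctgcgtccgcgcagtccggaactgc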

How the data were processed

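Gene counts of 19 rat heart libraries were used as deposited, in raw form, and the comparison reported took 6 of them. According to the labels, the authors trimmed reads with Trim Galore, checked them with FastQC, aligned them to rn6 with HISAT2 and made the counts with HTSeq. Strand and overlap settings were not stated. The 19 libraries were fitted together by group in R 4.3.3 with edgeR 4.0.16, after filterByExpr and TMM scaling, and tested by the quasi-likelihood method with Benjamini-Hochberg adjustment. Calls needed an adjusted p below 0.05 together with a log2 fold change of 1 or more in size. Intervals came from limma 3.58.1 (voom). Tables and figures used Python 3.11.15, pandas 2.3.3, scipy 1.17.1 and matplotlib 3.10.9. The scripts were tested on simulated data. Genes were named by rule: the 10 largest rises and falls without overlap, up to 4 called genes of each of 46 lists (31 of processes or the study, 15 of cell types), the 5 most abundant beyond both controls in each direction, the 10 most abundant and fixed anchors. Members and lists were chosen with earlier results of these data known. The alternatives tried were DESeq2 1.42.0, other scalings and filters, voom with sample weights, the compared libraries alone, a replicate block, and each library left out. The largest changes skipped 20 symbols without an assigned name. List genes missing from the files, and a few others, were not analysed here.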

Additional observations from a re-analysis of the deposited data

How the results depend on the processing

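With the compared libraries alone the treated hearts differed from control 5-week hearts in 594 genes, with voom and sample weights in 2385, and by the adjusted p alone in 2148. Leaving out 1 library at a time gave 389 to 1882. For control 9-week against control 5-week hearts the adjusted p alone gave 4276 genes, and leaving out 1 library 1206 to 2025. HFpEF against control 5-week hearts gave 460 with the compared libraries alone, 2478 by the adjusted p alone and 730 to 1228 without 1 library. Treated against control 9-week hearts gave 4181 by the adjusted p alone and 973 to 1578 without 1 library. Genes beyond both controls numbered 698 with voom and sample weights and 198 to 841 without 1 library. The distance of treated hearts to control 5-week over that to control 9-week hearts was 1.02, and 1.05 with a smaller prior count, 1.18 on the most variable genes and 1.00 on DESeq2 values. The cause of these differences was not tested.

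A replicate block gave 907 genes for treated against control 5-week hearts, 1680 for control 9-week against control 5-week, 932 for HFpEF against control 5-week and 1407 for treated against control 9-week hearts, with 380 beyond both controls. Treated and control 5-week libraries of the same number were correlated as deviations of log2 CPM from their group means, at -0.04, -0.16 and 0.07. With so few libraries in each group these values cannot decide whether the numbers pair the samples.

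Of 133 called genes tracked over 28 settings, 48 kept the call in each setting that tested them, 85 lost it in at least 1, and none turned direction. Groups of 3 ventricles, with 1 control apart, limit every result, and the labels do not tell treatment from age or the cell types from each other.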

Other observations

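Several cell-type marker lists held 1 call or none. Of 12 smooth muscle and pericyte markers none was called and 5 lay within 2-fold, with a median log2 fold change of -0.27 and a summed level of 4076, 5654 and 5409 CPM in control 5-week replicates 1, 2 and 3 and 3922, 4536 and 3755 CPM in treated ones, Des being the most abundant. None of 6 tested lymphatic endothelial markers was called, with sums of 129, 200.4 and 122 CPM in the controls and 168, 190.1 and 329.8 CPM in treated ones and Ccl21 the most abundant. None of 9 Schwann cell markers was called either, with sums of 222, 105 and 115 CPM in the controls and 252, 164 and 228 CPM in treated ones and Scn7a the most abundant. Among 8 tested markers of neutrophils and mast cells, with Ltf and Mcpt1 at 0 in all 6 libraries, the sums were 49.1, 46.9 and 52.5 CPM in the controls and 37.96, 36.7 and 41.8 CPM in treated ones, Kit being the most abundant. Of 12 tested lymphocyte markers 1 fell, Cd4, the co-receptor of helper T cells, from 54.3, 95.9 and 81.5 to 29.2, 16.9 and 37.7 CPM (log2 fold change -1.47 ± 0.43, adjusted p = 0.0311). Among all genes 6.22% fell. The call of Cd4 ended without control 5-week replicate 2 or 3 or treated replicate 1 or 2 (adjusted p 0.0614 to 0.138). Cell numbers behind these sums were not tested.

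Of 6 tested adipocyte markers 1 rose, against 3.03% of all genes. Pparg, the regulator of fat cells, went from 11.7, 9.31 and 10.3 to 21.5, 18.9 and 26.01 CPM (log2 fold change 1.09 ± 0.30, adjusted p = 0.0255), and the summed markers held 965, 566 and 644 CPM in the controls and 1230.2, 1211 and 1390.3 CPM in treated ones, with Fabp4 the most abundant. The call of Pparg ended without control 5-week replicate 2 or 3 or treated replicate 2 or 3 (adjusted p 0.0565 to 0.112, absolute log2 fold change down to 0.97). The 6 tested mesothelial markers gave no call and summed to 56.1, 29.9 and 40.3 CPM in the controls and 65.3, 85.002 and 55.4 CPM in treated ones, with Wt1 the most abundant and Krt19 at 0 in all 6 libraries. Skeletal muscle markers, 7 tested, gave no call, or 3 lower without control 5-week replicate 1 and 1 higher without treated replicate 1, and summed to 33.2, 89.1 and 76.5 CPM in the controls and 35.1, 24.3 and 33.2 CPM in treated ones, with Tnnt3 the most abundant. In bone, cartilage and valve matrix, with Spp1 the 1 call of 11, sums were 33.2, 217 and 183 CPM in the controls and 25.7, 24.9 and 31.1 CPM in treated ones.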
